A study of Mus musculus with 6 samples.

Results

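Glycolysis and hypoxia-responsive genes were compared between a pair of mouse hypothalamic cell lines, A_212, derived from adult hypothalamus, and N_46, derived from embryonic hypothalamus. The 36 listed genes were chosen with earlier results of these data known. They are glucose and lactate transporters, glycolytic enzymes, pyruvate dehydrogenase kinases, oxygen sensing genes and other hypoxia targets. Of these, 31 were read by 66 probe sets that the platform annotation names for that gene alone, out of 12393 genes and 22690 probe sets in all. Gapdh was read by control and shared probe sets alone and Bnip3l by shared ones alone, so both are described apart. Gpi1, Eno1 and Ankrd37 have no probe set in the annotation used here, so only their promoters were searched. Ero1l is listed under its later symbol Ero1a.

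Both lines were immortalised by overexpression of SV40 T-antigen, a viral protein that binds p53 and the retinoblastoma proteins, and both are labelled as expressing Npy, the gene of neuropeptide Y. Each line was grown on 3 plates to 70% confluence in DMEM with 5% fetal bovine serum, and RNA of each plate went to 1 oligonucleotide array. The oxygen and glucose that the plates received are not given in the sources used here. Each age of origin is represented by 1 line, so the effect of age and other differences between these lines cannot be told apart. The p-values set each difference between the lines against the spread between plates of a line. The deposited log2 values are centred on each probe set's median, which is 0. They show how arrays differ and hold no expression level, and whether a gene or a cell type marker is absent cannot be read from them. All differences below are N_46 minus A_212 on the log2 scale, with positive values for genes higher in N_46, and the base of 2 was inferred from the named method. Npy itself differed by 0.05 ± 0.08 (SE, n = 3 arrays per line; limma adjusted p = 0.66).

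Glycolysis turns glucose into pyruvate in the cytosol with a small gain of ATP, and lactate dehydrogenase turns pyruvate into lactate when it is not oxidised in mitochondria. When oxygen is plentiful, prolyl hydroxylases of the Egln family mark the alpha subunits of hypoxia-inducible factor (HIF) for destruction. When oxygen is short, HIF accumulates and raises transcription of glucose transporters, most glycolytic enzymes, pyruvate dehydrogenase kinase 1 and secreted factors such as vascular endothelial growth factor. HIF binds a short core, ACGTG or GCGTG, in the hypoxia response elements of these genes. In brain, astrocytes are known for high glycolysis and lactate export, and neurons take up glucose mainly through Slc2a3 and use lactate.

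The core letters were looked for in the promoters of the 36 genes, since most of them are textbook HIF targets. RefSeq promoter windows of build GRCm38.p6 were matched for 32 of the genes, and in each the 250 bases before the annotated start were searched for ACGTG and GCGTG on both strands. A stretch CACGTG, the E-box, holds ACGTG on each strand and was counted as 1 stretch. The core was present in at least 1 window of 30 of the 32 genes (93.8%), and in 8235 of 17492 protein-coding genes of the table (47.1%). By window it was present in 40 of 49 (81.6%) and in 9358 of 21263 (44.0%). The core holds a CG pair, and the windows of these genes had a median of 16 CG pairs against 10 in protein-coding windows. The part of this base composition in the shares was not tested. The core was present for all 12 genes with a window that were higher in N_46, for all 3 that were higher in A_212, and for 12 of 13 that did not pass the test described below. The letters therefore lay in windows of genes on either side of the comparison. For Vegfa they came only from a window downstream of its most upstream start, inside the stretch that start precedes. Whether that window acts as a promoter was not tested. A match is a description of letters and not a shown binding site.

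The windows of 6 genes, the most upstream one of each, are printed so that genes of different roles and of both directions can be set side by side, and Vegfa stands for a window without the core. Capitals mark the core letters, and each sequence runs 5′ to 3′ on the gene's own strand up to the base before the start.
Adm (chr7:110627407-110627656, plus strand): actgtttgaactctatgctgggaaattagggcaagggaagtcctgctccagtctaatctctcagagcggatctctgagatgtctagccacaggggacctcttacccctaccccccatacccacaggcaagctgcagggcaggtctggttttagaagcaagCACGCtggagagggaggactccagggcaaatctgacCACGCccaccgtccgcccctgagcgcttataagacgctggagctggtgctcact
Egln3 (chr12:54203875-54204124, minus strand): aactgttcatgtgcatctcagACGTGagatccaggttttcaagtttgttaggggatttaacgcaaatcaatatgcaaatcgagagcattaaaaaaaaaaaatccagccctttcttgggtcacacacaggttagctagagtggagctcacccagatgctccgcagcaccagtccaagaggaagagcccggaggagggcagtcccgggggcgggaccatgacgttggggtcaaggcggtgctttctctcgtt
Pdk1 (chr2:71872974-71873223, plus strand): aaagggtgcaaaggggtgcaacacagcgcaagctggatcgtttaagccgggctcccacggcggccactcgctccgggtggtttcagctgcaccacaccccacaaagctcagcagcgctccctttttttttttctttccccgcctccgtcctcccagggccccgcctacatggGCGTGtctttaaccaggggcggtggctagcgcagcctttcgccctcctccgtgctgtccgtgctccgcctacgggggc
Hk2 (chr6:82774455-82774704, minus strand): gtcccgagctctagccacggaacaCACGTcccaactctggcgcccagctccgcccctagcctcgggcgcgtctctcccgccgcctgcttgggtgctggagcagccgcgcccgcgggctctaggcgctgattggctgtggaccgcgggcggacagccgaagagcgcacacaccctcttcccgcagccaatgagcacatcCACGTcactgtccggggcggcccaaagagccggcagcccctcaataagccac
Ldha (chr7:46845554-46845803, plus strand): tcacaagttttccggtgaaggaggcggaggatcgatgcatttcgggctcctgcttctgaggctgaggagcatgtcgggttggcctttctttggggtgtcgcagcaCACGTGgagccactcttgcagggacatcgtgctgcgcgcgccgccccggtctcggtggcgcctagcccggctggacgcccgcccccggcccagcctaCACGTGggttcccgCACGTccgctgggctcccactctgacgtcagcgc
Vegfa (chr17:46032378-46032627, minus strand): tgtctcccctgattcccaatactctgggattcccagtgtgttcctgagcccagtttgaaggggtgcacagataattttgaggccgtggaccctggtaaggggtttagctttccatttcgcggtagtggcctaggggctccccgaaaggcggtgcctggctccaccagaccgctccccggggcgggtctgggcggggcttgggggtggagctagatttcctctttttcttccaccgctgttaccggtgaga
Ldha had 3 stretches, of which 2 were E-boxes, Adm and Hk2 had 2 each, and Egln3 and Pdk1 had 1 each. Vegfa had 0 here and 2 in its other window, which lies downstream of this start and may not be promoter sequence. The nearest match lay 34 bases before the start in Ldha, 54 in Adm, 52 in Hk2, 78 in Pdk1 and 229 in Egln3, counted from the first letter of the match to the start.

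The lines differed in 16 of the 31 measured genes in limma's test (adjusted p under 0.05 after Benjamini-Hochberg adjustment across the 12393 genes). Of these, 13 were higher in N_46 and 3 in A_212. This is 51.6% of the measured genes, against 39.2% of all genes tested, with 20.9% of all genes higher in N_46 and 18.3% in A_212. With arrays set to the same median, 2284 of all genes were higher in N_46 and 2472 in A_212, so the order of these directions reversed. The median difference of the 31 genes was 0.13, and that of all genes tested was 0.06. The gene that differed most, adrenomedullin (Adm), was higher in A_212, while Vegfa, Egln3, Pdk1, Slc16a1 and both hexokinases were higher in N_46. Differences past the test were small in most of these genes, and 2 of the 31, Adm and Hk1, passed the test and reached 2-fold, against 5.83% of all genes tested. The arrays of the lines did not overlap for 23 of the 31 genes, where this was so for 51.1% of all genes. All 16 genes past the test were among these 23.

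**Figure D1:**
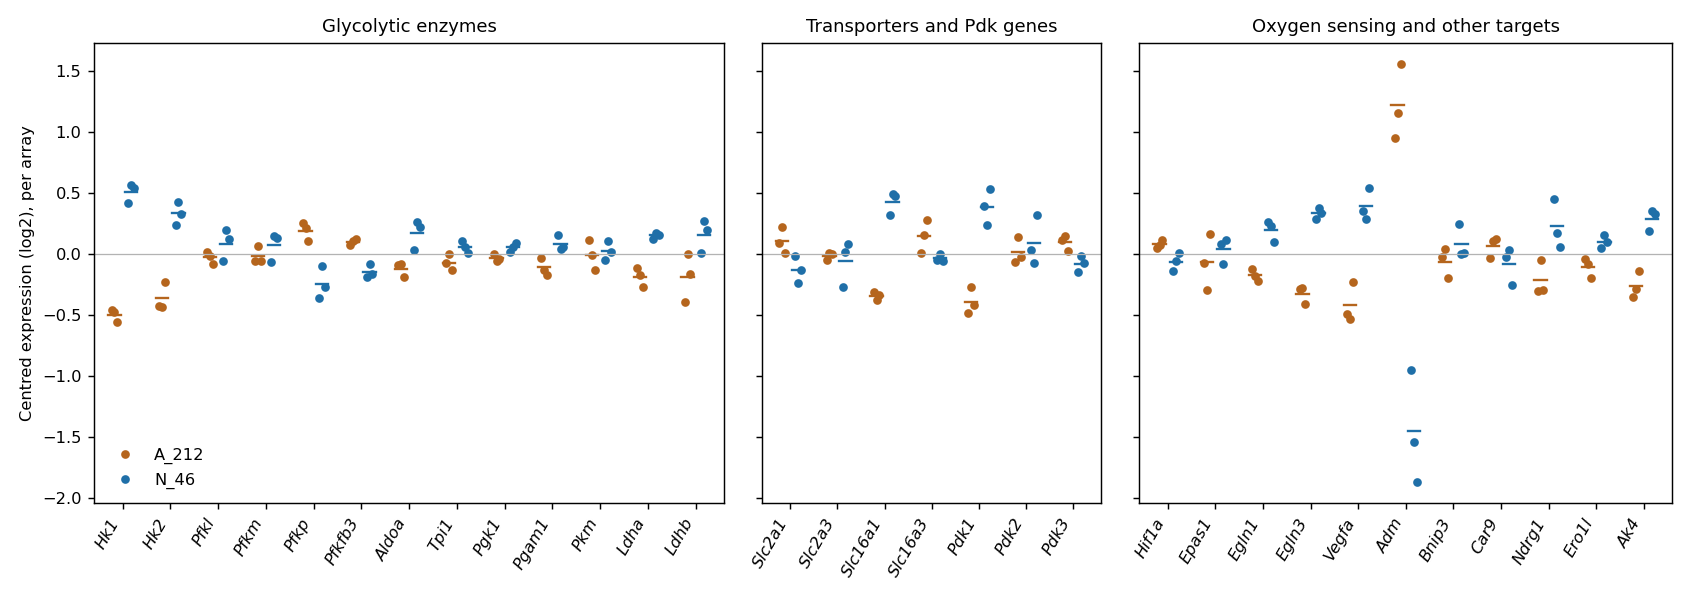
Centred log2 expression of the 31 measured genes on each array, with 3 arrays of A_212 (brown) and 3 of N_46 (blue), and a bar at each line's mean. Adm lies between 0.95 and 1.56 in A_212 and between -0.95 and -1.87 in N_46, whereas Hk1, Hk2, Slc16a1, Pdk1, Egln3 and Vegfa lie below 0 on every A_212 array and above 0 on every N_46 array. Where the lines do not overlap on a probe set, the centring alone puts them on opposite sides of 0.

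Among 13 glycolytic enzyme genes measured, 5 were higher in N_46, 2 were higher in A_212 and 6 did not pass, with a median difference of 0.13. The 7 called are 53.8% of the 13, against 39.2% of all genes tested. The entry step had the largest differences of the 13. Hexokinases phosphorylate glucose and so trap it in the cell, and Hk1 is the form that most tissues, brain included, express throughout, while Hk2 is the form of muscle, fat and tumours that HIF and insulin raise. Hk1 had values of -0.46, -0.48 and -0.56 on the A_212 arrays and 0.42, 0.57 and 0.54 on the N_46 arrays. Its difference of 1.01 ± 0.07 (SE, n = 3 arrays per line) is 2.01-fold (limma adjusted p = 2.0e-06), and the lines stood far apart beside SDs of 0.05 and 0.08. Its 2 probe sets gave 1.06 and 0.96. A further probe set that names 6 genes, Hk1 among them, stood at -0.14 and was left out of this value. Hk2 had -0.43, -0.44 and -0.24 in A_212 and 0.24, 0.43 and 0.33 in N_46. The difference was 0.70 ± 0.08, or 1.62-fold (adjusted p = 8.4e-05), and the lines did not overlap.

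At the committed step, phosphofructokinase, 1 of 3 isozyme genes passed. Pfkp, the platelet form that is also common in brain and tumours, had 0.25, 0.21 and 0.11 in A_212 and -0.37, -0.11 and -0.27 in N_46. It was higher in A_212, at -0.44 ± 0.09 (adjusted p = 0.0021), and both of its probe sets passed, at -0.47 and -0.40. The liver form Pfkl differed by 0.11 (95% interval -0.07 to 0.29) and the muscle form Pfkm by 0.09 (-0.09 to 0.27), and neither passed. Pfkfb3, which makes the fructose 2,6-bisphosphate that activates phosphofructokinase, was higher in A_212 as well. Its A_212 values were 0.07, 0.10 and 0.12 and its N_46 values -0.19, -0.08 and -0.17, a difference of -0.25 ± 0.07 (adjusted p = 0.016). The call came from 1 of its 2 probe sets, at -0.47, while the other stood at -0.03, and without N_46 replicate 3 the adjusted p was 0.073.

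Of the listed enzymes of the middle of the pathway, 1 passed. Aldoa, the aldolase that splits fructose 1,6-bisphosphate, was higher in N_46 by 0.29 ± 0.08 (adjusted p = 0.015). It had -0.09, -0.08 and -0.19 in A_212 and 0.03, 0.26 and 0.21 in N_46, with no overlap. All 4 of its probe sets are of the x type, which can match other sequences, and its adjusted p was 0.074 without N_46 replicate 2 and 0.063 without N_46 replicate 3. Triosephosphate isomerase (Tpi1, 0.13), phosphoglycerate kinase (Pgk1, 0.09) and phosphoglycerate mutase (Pgam1, 0.20; adjusted p = 0.057) did not pass, although their arrays did not overlap. For Tpi1 the lines all but met, at -0.0065 in A_212 replicate 2 and 0.0065 in N_46 replicate 3. Pgk1 was similar, at -0.0062 in A_212 replicate 1 and 0.012 in N_46 replicate 1. Pyruvate kinase (Pkm), which makes pyruvate and ATP at the last step, differed by 0.03 (95% interval -0.16 to 0.22). Over the 6 enzyme genes that did not pass, differences lay between 0.03 and 0.20, and their 95% intervals between -0.16 and 0.36. Gapdh, the enzyme between aldolase and phosphoglycerate kinase, was read by 3 control probe sets along its transcript, at -0.02 for both the 3' and the 5' one and -0.04 for the middle one, and by 2 probe sets that also name pseudogenes or other loci, at 0.0045 and 0.08. These 5 were not tested, and their SDs within a line ranged up to 0.11.

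Lactate dehydrogenase had both of its main subunits higher in N_46. Ldha, the subunit that favours lactate formation and a classic HIF target, had -0.12, -0.17 and -0.27 in A_212 and 0.12, 0.17 and 0.16 in N_46. It differed by 0.34 ± 0.07, or 1.26-fold (adjusted p = 0.0035). Ldhb, the subunit that favours lactate use and is high in neurons and heart, differed by 0.34 ± 0.11 (adjusted p = 0.028). Its values were -0.39, -0.0029 and -0.17 in A_212 and 0.0029, 0.27 and 0.19 in N_46, so the lines all but met at A_212 replicate 2 and N_46 replicate 1. Of its 4 probe sets 3 passed, and the gene's adjusted p was 0.10 without A_212 replicate 1 (difference 0.24), 0.061 without A_212 replicate 3, 0.10 without N_46 replicate 2 and 0.077 without N_46 replicate 3. The count of enzyme genes higher in N_46 was 3 without N_46 replicate 2 or N_46 replicate 3, and that of enzyme genes higher in A_212 was 1 without N_46 replicate 3.

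**Figure D2:**
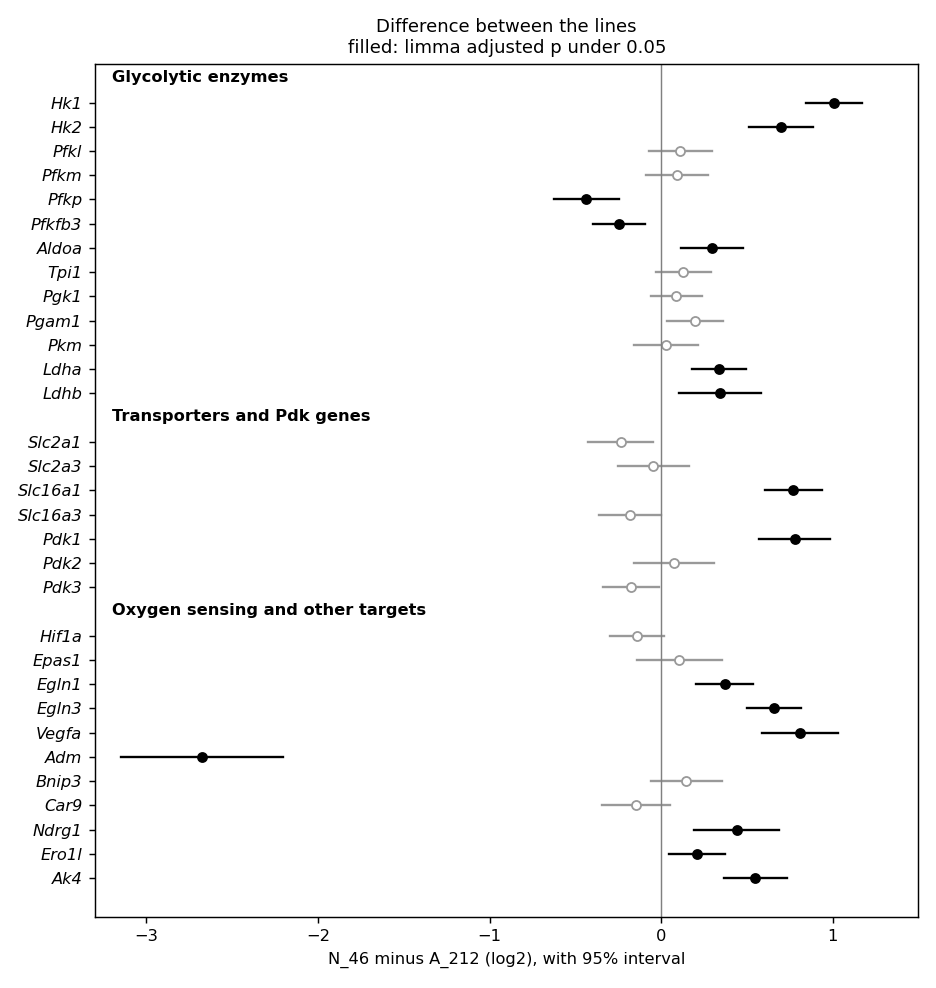
Difference of the line means, N_46 minus A_212 (log2), for the 31 measured genes with 95% intervals from limma (3 arrays in each line). Filled points passed the adjusted p, and Adm at -2.68 lies on the opposite side from Hk1 (1.01), Vegfa (0.81), Pdk1 (0.78) and Slc16a1 (0.77).

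Of the 7 transporter and pyruvate dehydrogenase kinase genes, 2 were higher in N_46 (28.6%, against 20.9% of all genes tested), 0 were higher in A_212 and 5 did not pass, with a median difference of -0.05. This median turned to 0.032 with array weights and to 0.059 without N_46 replicate 1. At an unadjusted p under 0.05 (limma), 3 were higher in A_212. Neither glucose transporter passed. Slc2a1 (GLUT1), the HIF-responsive transporter of astrocytes, endothelium and most cultured cells, had 0.09, 0.22 and 0.01 in A_212 and -0.02, -0.24 and -0.14 in N_46. Its difference was -0.24 ± 0.09 (95% interval -0.43 to -0.05; adjusted p = 0.051), the lines did not overlap, and it passed in 6 alternatives, among them arrays set to the same median (0.036). Slc2a3 (GLUT3), the neuronal transporter, differed by -0.05 (-0.25 to 0.16), with overlapping arrays and probe sets of both signs, from -0.14 to 0.05.

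The monocarboxylate transporters, which carry lactate across the membrane with a proton, had differences of opposite sign. Slc16a1 (MCT1), the widely expressed form, had -0.31, -0.38 and -0.34 in A_212 and 0.31, 0.49 and 0.47 in N_46. The difference of 0.77 ± 0.07 is 1.70-fold (adjusted p = 1.7e-05), read by 1 probe set. Slc16a3 (MCT4), the lactate exporter of glycolytic cells and a HIF target, had 0.01, 0.15 and 0.28 in A_212 and -0.05, -0.01 and -0.06 in N_46. It differed by -0.18 ± 0.08 and did not pass (adjusted p = 0.11), but passed without A_212 replicate 1 (-0.25, adjusted p = 0.040).

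Pyruvate dehydrogenase kinases inactivate the complex that feeds pyruvate into mitochondrial oxidation, and Pdk1 is the form that HIF raises. Pdk1 had -0.48, -0.28 and -0.42 in A_212 and 0.39, 0.23 and 0.53 in N_46, a difference of 0.78 ± 0.09, or 1.72-fold (adjusted p = 7.7e-05). Both of its probe sets passed, at 1.20 and 0.35, so the size, though not the sign, varied between them. Pdk2 differed by 0.07 (95% interval -0.16 to 0.31) and Pdk3 by -0.17 (-0.34 to -0.01; adjusted p = 0.084), and Pdk3 passed without A_212 replicate 3 (-0.21, adjusted p = 0.045). The count of these genes higher in A_212 was thus 2 without A_212 replicate 3 (Slc2a1 and Pdk3), 1 without A_212 replicate 1 (Slc16a3) and 1 without N_46 replicate 1 (Slc2a1).

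Among 11 oxygen sensing genes and other hypoxia targets measured, 6 were higher in N_46, 1 was higher in A_212 and 4 did not pass. The 7 called are 63.6% of the 11, against 39.2% of all genes tested, and the median difference was 0.21. The HIF alpha subunits themselves, which are regulated mainly as proteins, did not pass. Hif1a had 0.04, 0.07 and 0.11 in A_212 and -0.14, -0.06 and 0.01 in N_46, at -0.14 ± 0.07 (adjusted p = 0.15), and its arrays did not overlap. Of its 4 probe sets, from -0.28 to -0.01, the one at -0.28 passed on its own (adjusted p = 0.037). Epas1, which encodes HIF-2 alpha, differed by 0.11 (95% interval -0.14 to 0.35) and had an A_212 range from -0.30 to 0.16.

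Both prolyl hydroxylase genes of the list were higher in N_46. Egln1 (PHD2), the main oxygen sensor for HIF-1 alpha, had -0.12, -0.18 and -0.22 in A_212 and 0.26, 0.23 and 0.09 in N_46, a difference of 0.37 ± 0.07 (adjusted p = 0.0026). Egln3 (PHD3), which HIF itself raises, had -0.29, -0.29 and -0.41 in A_212 and 0.28, 0.37 and 0.33 in N_46. Its difference was 0.66 ± 0.07, or 1.58-fold (adjusted p = 3.8e-05), with probe sets at 0.63 and 0.69.

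Vegfa and Adm, hypoxia targets of the list that encode secreted products, differed in opposite directions. Vegfa, the growth factor of blood vessels, had -0.49, -0.54 and -0.23 in A_212 and 0.35, 0.29 and 0.54 in N_46. It was higher in N_46 by 0.81 ± 0.10, or 1.75-fold (adjusted p = 9.4e-05), with probe sets at 0.98 and 0.64. Adm, the precursor of the vasodilator peptide adrenomedullin, had 0.95, 1.15 and 1.56 in A_212 and -0.95, -1.54 and -1.87 in N_46. Its difference of -2.68 ± 0.21 is 6.40-fold (adjusted p = 3.6e-06), the 118th in size of all 12393 genes, read by 1 probe set. Its plates also varied more than those of any other gene of the 31, with SDs of 0.31 in A_212 and 0.47 in N_46, against medians of 0.08 and 0.10 over the 31 genes. Adm was the 1 gene of the 31 that passed a test against a 2-fold bound (limma's treat).

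The remaining targets were higher in N_46 or did not pass. Ak4, a mitochondrial adenylate kinase, had -0.36, -0.29 and -0.14 in A_212 and 0.18, 0.35 and 0.33 in N_46, at 0.55 ± 0.08 (adjusted p = 0.00041). Its 4 probe sets did not read alike, with 1.10 and 0.81 past the test and 0.14 and 0.14 not past it. Ndrg1, a gene of growth arrest and hypoxia, had -0.31, -0.05 and -0.30 in A_212 and 0.45, 0.17 and 0.05 in N_46, at 0.44 ± 0.11 (adjusted p = 0.0094), and all 5 of its probe sets passed. Ero1l, the oxidase that helps form disulfide bonds in the endoplasmic reticulum, differed by 0.21 ± 0.07 (adjusted p = 0.046). Its probe sets stood at -0.02, 0.30 and 0.35, and its call ended when arrays were set to the same median (0.18, adjusted p = 0.092) or the same 75th percentile (0.19, adjusted p = 0.066), with plain probe sets alone (0.21, adjusted p = 0.056), and without each array in turn except N_46 replicate 1 (adjusted p from 0.051 to 0.17).

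Bnip3, a mitophagy receptor, differed by 0.15 (95% interval -0.06 to 0.35), and carbonic anhydrase 9 (Car9), a cell surface enzyme that is among the most HIF-dependent genes known, by -0.15 (-0.35 to 0.05). Neither passed, and their arrays overlapped. Bnip3l, a receptor related to Bnip3, was read by 3 probe sets that also name its pseudogene, at 0.05, -0.05 and -0.05, and was not tested.

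**Figure D3:**
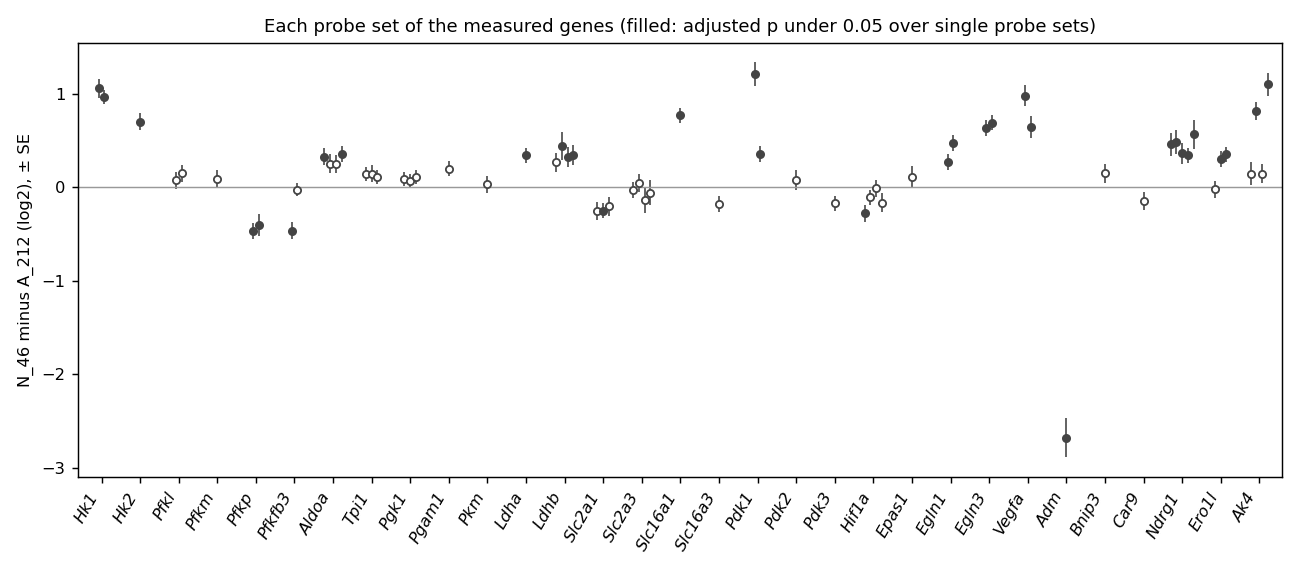
Difference N_46 minus A_212 (log2) for each of the 66 probe sets, with the SE of a limma fit over single probe sets; filled points passed the adjusted p in that fit. Probe sets of Hk1, Egln3 and Ndrg1 lie close together, while those of Pdk1 (1.20 and 0.35), Pfkfb3 (-0.47 and -0.03) and Ak4 (from 0.14 to 1.10) lie apart.

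Probe set by probe set, 33 of the 66 passed, 27 higher in N_46 and 6 in A_212, which is 50% against 37.4% of all 20380 probe sets with 1 gene. For 18 of the 31 genes more than 1 probe set was read, and in 2, Slc2a3 and Ero1l, the probe sets had both signs. Of the 66, 34 carry a suffix in their name (a, s or x) that marks probes shared between transcripts or sequences. With plain probe sets alone, 6 of the 13 enzyme genes could be read, and 1 of these was higher in N_46 and 2 in A_212.

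The 31 genes lie on 16 chromosomes, with 4 each on chromosomes 6 and 7. The median difference of all genes on these chromosomes ranged from -0.07 on chromosome 9 to 0.19 on chromosome 10, which carries Hk1 and Pfkl. All 16 genes past the test kept their sign when the median of their chromosome was taken out, with Hk1 at 0.82. This had to be so, because the smallest of their differences, 0.21 in size, exceeds each of these medians. It is therefore no check of the calls. Pfkl turned from 0.11 to -0.07.

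Genes of the same pathways outside the list were counted in the same way. Of 31 other glycolysis and pyruvate genes measured of 43 listed, 5 were higher in N_46 (16.1%), 10 were higher in A_212 (32.3%) and 16 did not pass, against 20.9% and 18.3% of all genes tested. The median was 0.01, and it was below 0 with arrays set to the same median (-0.019). The count higher in N_46 was 2 without N_46 replicate 2 and 3 without A_212 replicate 3 or N_46 replicate 3. The largest differences toward A_212 were those of the neuronal enolase Eno2 (-1.47 ± 0.12, 2.77-fold), the muscle enolase Eno3 (-0.91 ± 0.10) and the brain aldolase Aldoc (-0.83 ± 0.13). Eno2 had 0.67, 0.57 and 0.57 in A_212 and -0.57, -1.08 and -0.95 in N_46. Aldoc lies opposite to Aldoa. Aldoc is also a marker of astrocytes, whose called markers went in both directions, as given below. On the N_46 side, Pdk4, the kinase form raised by fasting and fatty acids, had the largest difference, at 1.89 ± 0.09, or 3.70-fold (adjusted p = 5.3e-08). Pdk4 had -0.99, -0.82 and -1.02 in A_212 and 1.07, 0.82 and 0.94 in N_46. Bsg, the partner protein that brings monocarboxylate transporters to the membrane (0.38 ± 0.08), and the mitochondrial enzyme gene Pck2 (0.36 ± 0.10) were next.

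Of 16 pentose phosphate and glycogen genes measured of 18 listed, 3 were higher in each line (18.8% each) and 10 did not pass, shares near those of all genes tested (20.9% and 18.3%). The median was -0.05, but 0.014 with array weights and 0.047 without N_46 replicate 1. The 6-phosphogluconolactonase gene Pgls (0.92 ± 0.08), Prps1 (0.37 ± 0.10) and transaldolase (Taldo1, 0.34 ± 0.09) were higher in N_46. Pgd (-0.52 ± 0.07), which acts right after Pgls in the same oxidative branch, was higher in A_212, as were Ugp2 (-0.56 ± 0.07) and phosphoglucomutase Pgm1 (-0.49 ± 0.09), which lead toward glycogen.

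Of 44 other hypoxia pathway genes measured of 48 listed, 15 were higher in N_46 (34.1%), 11 were higher in A_212 (25%) and 18 did not pass, against 20.9% and 18.3% of all genes tested, and the median of 0.06 was that of all genes tested. Vldlr, a lipoprotein receptor (2.39 ± 0.26), Igfbp3, which binds insulin-like growth factors (2.24 ± 0.08), and the transferrin receptor Tfrc (1.61 ± 0.17) were highest in N_46. Plod2, the lysyl hydroxylase of collagen (-1.43 ± 0.09), Ppp1r3c, a glycogen-targeting subunit (-1.09 ± 0.14), and stanniocalcin 1 (Stc1, -0.90 ± 0.16) were highest in A_212. Adjusted p-values of the 18 genes named for these 3 lists ranged from 5.8e-09 for Igfbp3 to 0.016 for Pck2 (limma).

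**Figure D4:**
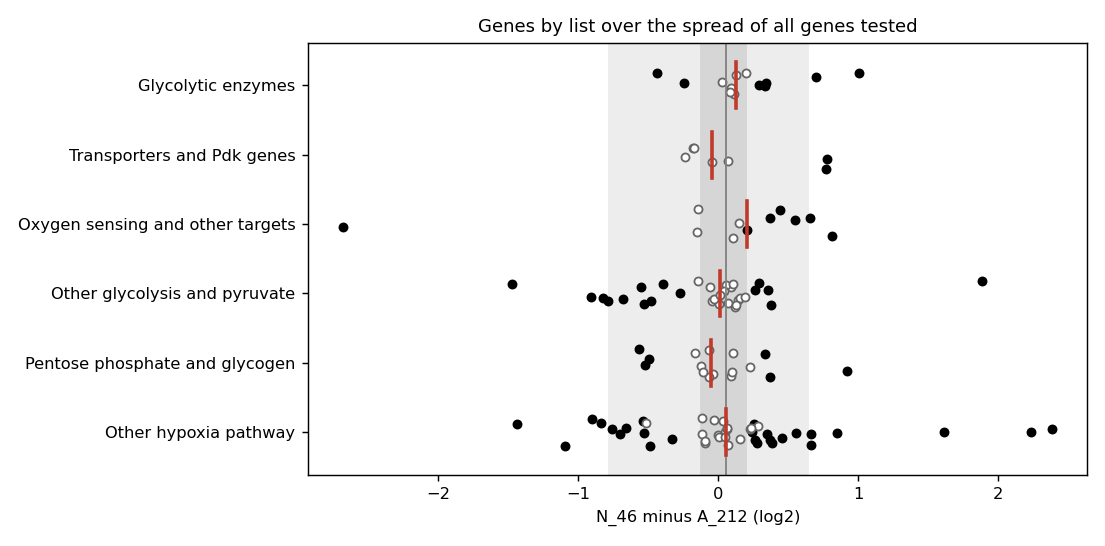
Difference N_46 minus A_212 (log2) of each gene by list, filled where the limma adjusted p was under 0.05, with a red bar at the list's median. The bands span the 25th to 75th (-0.12 to 0.20) and 5th to 95th (-0.78 to 0.64) percentiles of all 12393 genes; each list has genes on both sides, and Adm lies far to the left in its list.

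Markers of other cell types were read on the same arrays. Of 12 fibroblast markers, 8 were higher in A_212 and 1 in N_46 (75% called, against 39.2% of all genes tested), with a median difference of -1.31, and the median over the list ranged from 0.43 to 0.97 on the A_212 arrays and from -0.79 to -0.49 on the N_46 arrays. Of 12 neuronal markers 2 were higher in each line (33.3% called), with Stmn2 at -3.09 and Tubb3 at -1.13 toward A_212 and Map2 at 0.25 and Gap43 at 0.24 toward N_46. Of 8 astrocyte markers 2 were higher in N_46 and 1 in A_212 (37.5% called), and of 6 endothelial markers 1 was higher in each (33.3%). Of 6 microglia markers 0 passed in either direction (limma), with 1 higher in N_46 at an unadjusted p under 0.05. Of 9 proliferation genes 2 were higher in N_46 and 1 in A_212 (33.3%). The part of these markers in the differences of the glycolysis and hypoxia genes was not tested, and in such bulk RNA fewer cells of a type and less RNA per cell cannot be told apart. Across genes, N_46 replicates 2 and 3 correlated at r = 0.92 and N_46 replicate 1 with them at 0.82 and 0.83. Without N_46 replicate 1, the counts of enzyme genes were the same, 5 higher in N_46 and 2 in A_212.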

How the data were processed

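RNA of 6 plates, 3 of A_212 and 3 of N_46, was hybridised to Affymetrix mouse arrays. Per the labels' protocols, 5 µg of total RNA gave the biotinylated cRNA. The submitters' processing notes name RMA, which corrects background, quantile-normalises and summarises probes, without a version. The deposited values are log2 values, positive and negative, with a median of 0 over the 6 arrays for every probe set within 1e-05, a centring that no source used here describes. No raw intensity was used, so signal over background is unknown.

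Gene names came from the platform annotation, in which, of the probe sets, 20380 had 1 gene, 691 several, 1555 none and 64 were controls. A gene's value was the mean of its own probe sets, controls left out. The lines were compared by limma's lmFit with eBayes, two-sided, and p-values were adjusted by Benjamini-Hochberg across 12393 genes. Every measured gene of the list was named, and up to 3 genes each way per pathway list among those past the test, plus Npy. The genes, lists and tests were chosen with earlier results of these data known. Fits were run on simulated data as a check of the code, and no result here rests on that check. Alternatives were other scalings, array weights, robust eBayes, other probe set choices, treat, a replicate block and each array left out in turn. Fits ran in R 4.3.3 with limma 3.58.1, and tables and plots in Python 3.11.15 with matplotlib 3.10.9, pandas 2.3.3 and numpy 2.4.6.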

Additional observations from a re-analysis of the deposited data

How the results depend on the processing

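Of the 16 listed genes past the test, 12 kept their direction and call under every alternative that could read them, of 15 tried, other than treat; the exceptions were Pfkfb3, Aldoa, Ldhb and Ero1l, and no called gene changed sign. Of the 15 not past it, 12 stayed so under all alternatives, and Slc2a1, Slc16a3 and Pdk3 passed in some. Against a 2-fold bound (treat), the counts higher in N_46 and in A_212 were 138 and 268 over all genes, 0 and 0 for glycolytic enzymes, 0 and 0 for transporters and kinases, 0 and 1 for oxygen sensing genes and other targets, 1 and 1 for other glycolysis and pyruvate genes, 0 and 0 for pentose phosphate and glycogen genes, and 2 and 1 for other hypoxia pathway genes. With plain probe sets alone, which leave fewer genes, 1 enzyme was higher in N_46 (median 0.058), 1 transporter or kinase was higher in A_212, and 6 other glycolysis genes were higher in A_212; Ero1l lost its call here too. That transporter count was also 1 with array weights and when arrays shared 1 median or 1 75th percentile. The median over all genes was 0.030 with a shared median and 0.043 with a shared 75th percentile, that of other hypoxia pathway genes 0.028 with a shared median, and that of pentose phosphate and glycogen genes 0.014 with array weights.

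Leaving out 1 array in turn, counts higher in N_46 and in A_212 ranged from 1986 to 2858 and 1891 to 2266 over all genes, 3 to 5 and 1 to 2 for enzymes, 2 to 2 and 0 to 2 for transporters and kinases, 5 to 6 and 1 to 1 for oxygen sensing genes and other targets, 2 to 4 and 9 to 10 for other glycolysis genes, 3 to 4 and 3 to 3 for pentose and glycogen genes, and 11 to 15 and 11 to 12 for other hypoxia genes. The medians, in the same order, ranged from 0.044 to 0.080, 0.10 to 0.16, -0.11 to 0.059, 0.19 to 0.24, -0.018 to 0.066, -0.10 to 0.047 and 0.046 to 0.087. Deviations from the line mean correlated at r = -0.03, -0.01 and 0.09 between plates of the same replicate number. Between plates of other numbers r ranged from -0.10 to 0.12. Whether same-numbered plates were handled together cannot be read from these values. With the replicate block 2576 and 2258 genes were called, 5 and 2 enzymes, and 2 and 0 transporters and kinases. Oxygen sensing genes and other targets had 5 and 1 called, Ero1l losing its call (adjusted p = 0.063). The cause of these shifts was not tested. The number of arrays limits the precision.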
